A study of Mus musculus with 8 samples.

Results

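DNA replication and G1/S genes are described here as a module of 46 genes, named by symbol and matched to the mouse gene identifiers of a count table with 56953 identifiers. All 46 had a match, and all 46 passed the filter on low counts in each comparison. The genes were measured by RNA sequencing of CT26, a colorectal carcinoma cell line of the mouse, in 4 groups of 2 libraries. Of the tumours, grown from transplanted CT26 cells, 1 group had received normal saline and the other mLJZD, a drug whose abbreviation the labels do not spell out. Of the cultures, 1 group was kept for 48 hours with 10% control serum and the other with 10% serum that contained mLJZD, so the cultures met the drug by way of serum and not directly. The labels give no dose, no mouse strain, age or host, and no count of animals. Nothing in them tells if 2 libraries of a group stem from 2 animals or dishes, so the spread behind each p-value may be technical.

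DNA replication starts at origins, where the origin recognition complex, Cdc6 and Cdt1 load the MCM helicase during G1. In S phase Cdc45 and the GINS complex activate that helicase, polymerase alpha with primase lays down primers, polymerases delta and epsilon extend them on the sliding clamp Pcna, and Fen1 and Lig1 join the fragments of the lagging strand. Transcription of many of these genes rises at the G1/S transition under E2F factors, and cyclin E with its kinase drives that transition. The MCM genes are not among the 46 and are given at the end as a related list.

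Promoters of these genes are known to carry E2F and CCAAT elements, so the promoters of the 4 genes with the largest falls in tumours, among those in the promoter table, and of the only gene that rose there are shown. They are RefSeq sequences of build GRCm38.p6, from 250 bases before to 50 bases after the gene start, printed on the strand of the gene, with matches to the E2F site TTTNNCGC and to CCAAT in capitals on either strand. The promoter of Pola1 lies at chrX:93632106-93632405, minus strand, that of Dtl at chr1:191575495-191575794, minus strand, that of Rfc4 at chr16:23127681-23127980, minus strand, that of Cdc6 at chr11:98907901-98908200, plus strand and that of Orc3 at chr4:34614893-34615192, minus strand.
Pola1: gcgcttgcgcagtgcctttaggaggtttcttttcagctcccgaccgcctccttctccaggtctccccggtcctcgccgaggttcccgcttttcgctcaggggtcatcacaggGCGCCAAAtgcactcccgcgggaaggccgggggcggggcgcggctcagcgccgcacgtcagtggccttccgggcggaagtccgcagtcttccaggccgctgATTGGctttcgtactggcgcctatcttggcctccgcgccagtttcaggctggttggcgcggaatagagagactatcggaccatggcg
Dtl: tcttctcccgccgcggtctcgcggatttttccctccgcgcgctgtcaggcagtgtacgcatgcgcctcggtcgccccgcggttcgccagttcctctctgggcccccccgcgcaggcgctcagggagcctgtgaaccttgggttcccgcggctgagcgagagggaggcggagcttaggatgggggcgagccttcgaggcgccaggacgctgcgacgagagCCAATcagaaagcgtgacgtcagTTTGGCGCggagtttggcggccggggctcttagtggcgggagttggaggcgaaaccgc
Rfc4: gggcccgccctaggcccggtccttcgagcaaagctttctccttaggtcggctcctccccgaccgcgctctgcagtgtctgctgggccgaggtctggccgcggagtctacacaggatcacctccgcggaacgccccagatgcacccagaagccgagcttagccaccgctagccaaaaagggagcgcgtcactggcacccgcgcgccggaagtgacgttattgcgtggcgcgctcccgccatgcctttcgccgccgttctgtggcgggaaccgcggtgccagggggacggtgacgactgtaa
Cdc6: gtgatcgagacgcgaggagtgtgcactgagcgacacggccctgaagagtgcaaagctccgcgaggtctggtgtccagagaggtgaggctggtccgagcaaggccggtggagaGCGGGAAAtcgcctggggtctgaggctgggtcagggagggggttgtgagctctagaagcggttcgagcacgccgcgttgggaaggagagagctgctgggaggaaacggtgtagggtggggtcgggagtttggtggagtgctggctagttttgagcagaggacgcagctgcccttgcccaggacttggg
Orc3: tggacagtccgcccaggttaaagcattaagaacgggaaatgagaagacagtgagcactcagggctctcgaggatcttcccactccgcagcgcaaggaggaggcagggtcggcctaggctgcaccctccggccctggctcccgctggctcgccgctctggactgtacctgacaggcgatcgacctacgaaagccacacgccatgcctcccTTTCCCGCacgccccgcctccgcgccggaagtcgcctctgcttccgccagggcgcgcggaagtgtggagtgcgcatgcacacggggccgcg
Pola1 and Dtl held 1 E2F match and 1 CCAAT match each, Cdc6 and Orc3 held 1 E2F match each, and Rfc4 held neither.

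Of the 46 genes, 39 had an entry in the promoter table. The E2F letters TTTNNCGC or their complement GCGNNAAA were in 14 of these 39 promoters, against 5.93% of the promoters of all 27025 genes in the table. The CCAAT letters, or ATTGG on the other strand, were in 22 of 39, against 41.1% of all genes. The letters TTTGAA or TTCAAA, known as the cell cycle homology region, were in 5 of 39, against 20.2% of all genes. Among the genes that were lower in mLJZD tumours, 11 of 26 had the E2F letters, and among the other genes 3 of 13 had them. A match is a description of these letters in this window, not a bound site.

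Library totals ran from 16594912 to 29363861 counts. Marker lists of several cell types had counts in the tumours. In tumours, summed macrophage markers ran from 995 to 1001 CPM (CPM, the count scaled to a common library total) with saline and from 815 to 859 CPM with mLJZD, where Mrc1 (-0.66) and Csf1r (-0.25) were lower, Cd68 (0.23) was higher and the other two did not pass. Skeletal muscle markers summed to between 1909 and 1931 CPM with saline and between 298 and 308 CPM with mLJZD, and all 4 of the list (Acta1, Ckm, Myh4 and Tnnt3) were lower. B and plasma cell markers summed to between 46.8 and 48.1 CPM with saline and between 341 and 376 CPM with mLJZD, where 3 of the 4 tested were higher. Neutrophil markers went from 17.9 CPM in both saline tumours to between 29.2 and 31.4 CPM, with 4 of 5 higher, and erythroid markers from between 15.8 and 18.7 CPM to between 36.3 and 38.9 CPM, with 3 of 3 tested higher. Of the fibroblast list, which summed to between 2684 and 2709 CPM with saline and between 2918 and 2980 CPM with mLJZD, Col1a1 (0.63) and Dcn (0.26) were higher and the other 3 did not pass. Leucocyte markers had 2 of 4 higher, T and NK cell markers 1 of 5 lower, adipocyte markers 1 of 2 tested higher and endothelial markers 0 of 4 called. In the cultures, muscle, T cell, B cell, neutrophil, leucocyte and endothelial lists each stayed below 1 CPM. Macrophage markers there summed to between 8.29 and 10.6 CPM, mostly Cd68, and adipocyte markers to between 4.90 and 11.2 CPM, almost all Fabp4. Fibroblast markers summed to between 1829 and 2166 CPM, almost all Col1a1 and Col1a2. Other members of the macrophage, adipocyte and fibroblast lists, apart from Mrc1 and Pdgfra, each stayed below 1 CPM in every culture library. Of the epithelial markers expected of a carcinoma line, Epcam had no count in any culture library, while Krt18 ran from 29.2 to 39.0 CPM. Since these are bulk samples, fewer cells of a type and less RNA per cell cannot be told apart. Whether the RNA of host cells plays a part in the tumour results was not tested.

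Levels of the 46 genes spanned a wide range, and the sliding clamp Pcna was the most abundant per length in every group. Per kilobase of the longest annotated transcript, its level was 182 and 188 CPM per kilobase in the saline tumours, 138 and 156 in the mLJZD tumours, 219.6 and 231 in the control cultures and 183 and 185 in the mLJZD cultures. The small subunit of ribonucleotide reductase, Rrm2, came next in all 4 groups, with 112 and 113, 86.9 and 88.0, 118 and 120.3 and 135 and 141 CPM per kilobase in the same order. In the control cultures its libraries overlapped with those of Rpa3, the smallest subunit of the single-strand binding protein RPA, so that the order of the 2 is not settled there. Orc1, the largest subunit of the origin recognition complex, and Fen1, the flap nuclease of lagging-strand synthesis, were the lowest. The exons of Fen1 overlap an antisense gene over 1909 bases, so its level is uncertain without a stated strand setting. Orc1 stood at 2.11 and 2.18 and Fen1 at 3.62 and 4.00 CPM per kilobase in the saline tumours, while in the control cultures Fen1 was below Orc1, at 2.16 and 2.2 against 3.84 and 4.57. Without scaling by length, Rrm1 had the highest level of the 46 in all 4 groups. Together the 46 genes took 0.393% and 0.392% of all counts in the saline tumours, 0.316% and 0.314% in the mLJZD tumours, 0.465% and 0.480% in the control cultures and 0.507% and 0.505% in the mLJZD cultures. That share was lower in both mLJZD tumours than in both saline tumours, and higher in both mLJZD cultures than in both control cultures. A summed share weighs genes by their counts. Rrm1 alone had 379 and 384 CPM in the control cultures and 504 and 508 CPM in the mLJZD cultures. By the test given below, 17 of the 46 were lower and 13 higher in the mLJZD cultures.

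**Figure D1:**
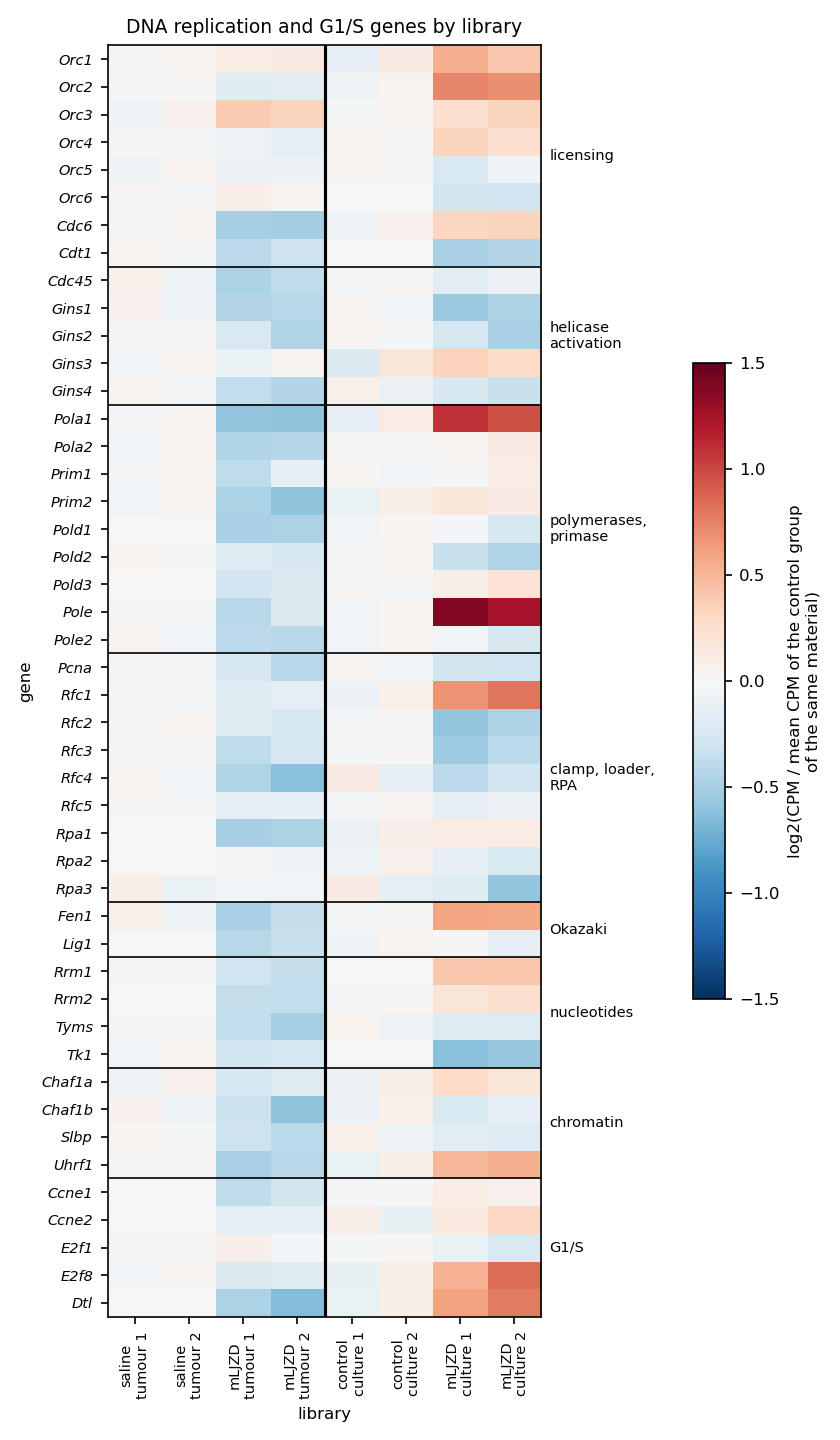
Level of each of the 46 genes in each library, as the log2 ratio of its CPM to the mean CPM of the control group of the same material (saline tumours or control cultures), grouped by role. The mLJZD tumours are mostly blue (lower), with Orc3 the only gene called higher, while the mLJZD cultures hold both colours, with Pole the highest.

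In tumours, mLJZD went with lower levels of most replication genes. Of the 46, 32 fell, 1 rose and 13 did not pass the test, by edgeR's quasi-likelihood test with Benjamini-Hochberg adjustment over 15417 genes. Over all genes tested, 16.0% fell and 15.4% rose, and the median log2 fold change was 0.00, against a median of -0.29 for the 46. In 40 of the 46 both mLJZD tumours were below both saline tumours and in 3 both were above, against 36.6% and 27.9% of all genes. The changes were modest, from -0.56 for Pola1 to 0.40 for Orc3 on the log2 scale. With groups of 2, exact permutation of 1 gene's values cannot reach 0.05, so each call rests on the spread that edgeR shares across genes. Calls depended on the mLJZD libraries, and without either one fewer were made, both of the 46 and of all genes. The median of the 46 was then -0.27 without replicate 1 and -0.26 without replicate 2. In the same order, 42 and 40 of the 46 had a negative fold change.

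Of the 8 origin licensing genes, 2 fell (Cdc6 and Cdt1), 1 rose (Orc3) and 5 did not pass. Cdc6, which helps load the helicase onto origins, had 36.4 and 38.0 CPM in the saline tumours and 26.3 and 25.9 CPM in the mLJZD tumours. The groups did not overlap, and the log2 fold change was -0.48 ± 0.08 (SE, adjusted p = 1.64e-04). Cdt1, its partner in loading and a target of destruction in S phase, had 107 and 103 CPM in the saline tumours and 80.2 and 85.0 CPM in the mLJZD tumours. It too was lower in both mLJZD tumours, with a log2 fold change of -0.32 ± 0.05 (SE, adjusted p = 5.79e-05). None of the 6 subunits of the origin recognition complex fell as fitted, and Orc2 did when the trend with length and GC content described further on was removed (-0.17 (adjusted p = 0.0214)). Orc3, identifier ENSMUSG00000040044, was the only gene of the 46 that rose, with 33.2 and 36.3 CPM in the saline tumours and 45.7 and 43.9 CPM in the mLJZD tumours. Both mLJZD tumours were above both saline tumours, with a log2 fold change of 0.40 ± 0.07 (SE, adjusted p = 4.01e-04). The log2 fold changes of the other 5 subunits ran from -0.14 for Orc2 to 0.15 for Orc1, with none called.

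Among the helicase activators, 4 of 5 fell. Gins2, a subunit of the 4-subunit GINS complex, had 40.5 and 41.4 CPM in the saline tumours and 35.0 and 30.01 CPM in the mLJZD tumours. Its groups did not overlap, and the log2 fold change was -0.30 ± 0.08 (SE, adjusted p = 0.00927). Gins1 (-0.39), Cdc45 (-0.39) and Gins4 (-0.37) also fell. Gins3 did not pass, at 0.00, and its libraries overlapped between the groups.

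All 9 polymerase and primase genes fell. Pola1, the catalytic subunit of polymerase alpha and identifier ENSMUSG00000006678, had the largest fall of the 46 as fitted, with 141 and 147 CPM in the saline tumours and 96.0 and 94.8 CPM in the mLJZD tumours. The saline and mLJZD values were well apart, and the log2 fold change was -0.56 ± 0.05 (SE, adjusted p = 3.95e-07). Prim2, the large subunit of primase, had 38.7 and 40.7 CPM in the saline tumours and 28.5 and 26.2 CPM in the mLJZD tumours. Its log2 fold change was -0.51 ± 0.08 (SE, adjusted p = 9.94e-05). The other subunits of polymerase alpha and primase, Pola2 and Prim1, changed by -0.41 and -0.22. For polymerase delta the changes were -0.45 for the catalytic subunit Pold1, -0.18 for Pold2 and -0.22 for Pold3. For polymerase epsilon they were -0.28 for the catalytic subunit Pole and -0.37 for Pole2.

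Of the clamp, clamp loader and RPA genes, 5 of 9 fell. Rfc4, a small subunit of the loader that opens the clamp, had 34.6 and 32.8 CPM in the saline tumours and 24.7 and 21.9 CPM in the mLJZD tumours. The groups did not overlap, and the log2 fold change was -0.50 ± 0.09 (SE, adjusted p = 3.74e-04). Rpa1, the large subunit of RPA, which coats single-stranded DNA, had 195 and 193 CPM in the saline tumours and 138 and 139 CPM in the mLJZD tumours. Its log2 fold change was -0.46 ± 0.05 (SE, adjusted p = 4.16e-06), while Rpa2 (-0.01) and Rpa3 (-0.01) did not pass. Pcna itself had 285 and 276 CPM in the saline tumours and 237 and 209.5 CPM in the mLJZD tumours. Both mLJZD tumours were below both saline tumours, with a log2 fold change of -0.30 ± 0.06 (SE, adjusted p = 9.48e-04). Rfc3 (-0.28) and Rfc2 (-0.18) fell, whereas Rfc1 (-0.13) and Rfc5 (-0.10) did not pass. In Okazaki fragment maturation the ligase Lig1 fell, at -0.35 ± 0.05 (SE, adjusted p = 8.90e-05). Fen1, at -0.39 ± 0.15 (SE, adjusted p = 0.0574), did not pass, and it had the fewest counts of the 46, 1216 over the 8 libraries.

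All 4 nucleotide supply genes fell. Rrm2, which makes deoxyribonucleotides together with Rrm1, had 247 and 247 CPM in the saline tumours and 193 and 190.5 CPM in the mLJZD tumours. Its log2 fold change was -0.33 ± 0.05 (SE, adjusted p = 7.64e-05), and that of Rrm1 was -0.30. Tyms, which makes thymidylate, changed by -0.40, and Tk1, which salvages thymidine, by -0.25. All 4 genes of chromatin at the fork and histone mRNA fell as well. They were Chaf1b (-0.42) and Chaf1a (-0.19) of the histone chaperone CAF-1, Uhrf1 (-0.41), which reads hemimethylated DNA behind the fork, and Slbp (-0.32), which binds histone mRNA.

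Of the G1/S regulators, 3 of 5 fell. Dtl, the substrate receptor of a ubiquitin ligase that destroys Cdt1 at the clamp, had 65.2 and 65.6 CPM in the saline tumours and 46.9 and 41.8 CPM in the mLJZD tumours. With a log2 fold change of -0.53 ± 0.07 (SE, adjusted p = 7.83e-06) it had the second largest fall of the 46 as fitted. Ccne1, or cyclin E1, had 39.3 and 39.7 CPM in the saline tumours and 30.3 and 32.7 CPM in the mLJZD tumours, and fell at -0.29 ± 0.07 (SE, adjusted p = 0.00538). E2f8, an E2F that represses, had 96.7 and 102 CPM in the saline tumours and 85.5 and 87.4 CPM in the mLJZD tumours, and its log2 fold change was -0.17 ± 0.05 (SE, adjusted p = 0.0119). The activator E2f1 did not pass, with 66.6 and 68.3 CPM in the saline tumours and 71.6 and 66.2 CPM in the mLJZD tumours. Its libraries overlapped between the groups, at a log2 fold change of 0.06 ± 0.06 (SE, adjusted p = 0.432), and Ccne2 did not pass either, at -0.10.

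Of the 32 falls, 10 were called under all 13 alternatives that were run for the tumours. These were Pola1, Pold1, Rpa1, Lig1, Rrm1, Rrm2, Tyms, Slbp, Uhrf1 and Dtl. Orc3 was called under each alternative other than leaving out an mLJZD library. In the same tumours the proliferation markers Mki67 and Top2a summed to between 1192 and 1221 CPM with saline and between 897 and 920 CPM with mLJZD, and both fell. The epithelial keratins Krt8 and Krt18 also fell, by log2 fold changes of -3.11 and -2.95, and their part in the results was not tested.

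**Figure D2:**
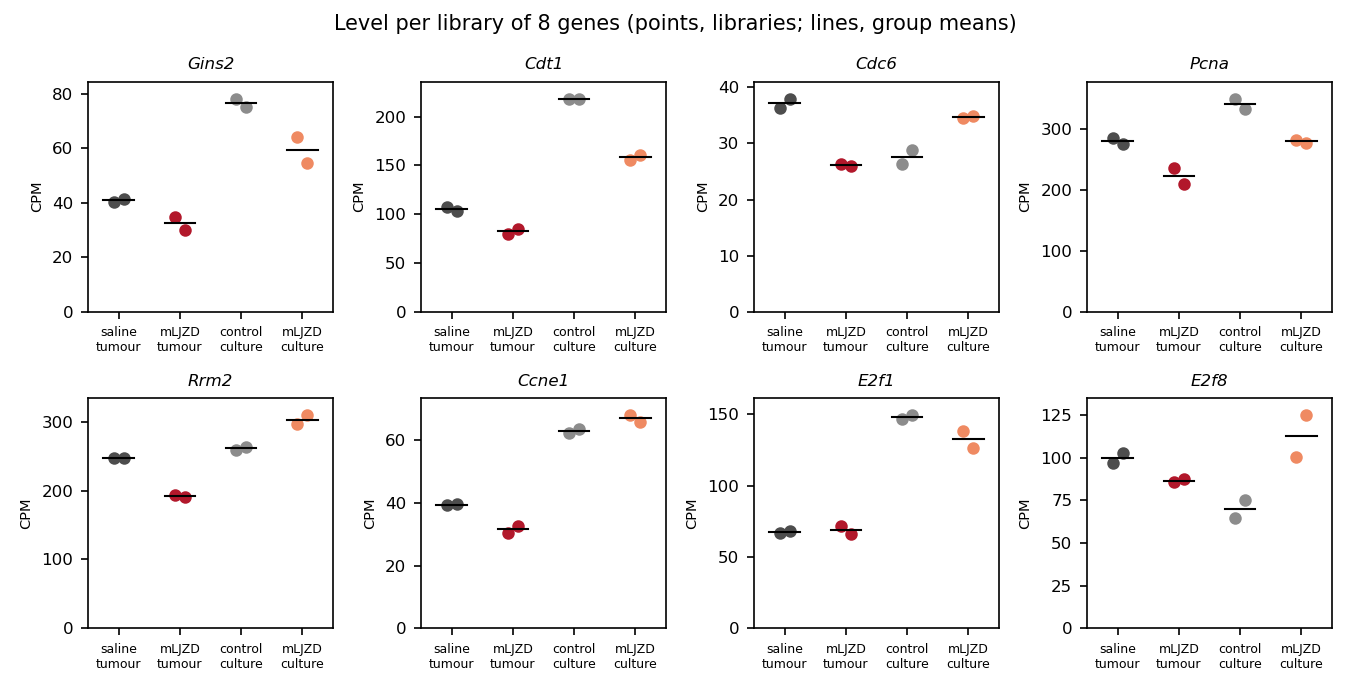
CPM of 8 genes that stand for the roles, in each library of the 4 groups, with group means as lines and axes from 0. Cdt1, Gins2 and Pcna are lower with mLJZD in both tumours and cultures. Rrm2, Cdc6 and E2f8 are lower in mLJZD tumours and higher in mLJZD cultures, and E2f1 differs mainly between tumours and cultures. In cultures the test did not call Rrm2 as fitted, nor Cdc6 and Pcna with the length and GC trend removed.

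In cultures the same genes moved in both directions. Of the 46, 13 rose, 17 fell and 16 did not pass, by edgeR over 13299 genes. Over all genes tested, 28.8% rose and 26.6% fell, so the share of rises is near the background, and the median was -0.07 for the 46 and -0.01 for all genes. Both mLJZD cultures were above both control cultures in 22 of the 46 and below in 21, against 42.0% and 35.4% of all genes. The split of calls depended on scaling, and that of all 13299 genes shifted with it. Under upper-quartile scaling 8 of the 46 were higher and 23 lower, beside 3188 and 4398 of all genes. By library totals alone 15 were higher and 12 lower, beside 4148 and 3120 of all genes.

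The direction in cultures went with the length of the transcript. Of the 9 genes with a longest transcript under 2000 bases, 8 fell and 0 rose, and among all protein-coding genes of that length 67.6% fell and 2.01% rose. Of the 10 genes of 4000 bases or more, 7 rose and 1 fell, and among all protein-coding genes of that length 61.8% rose and 7.57% fell. Across the 46 genes, the log2 fold change correlated with log2 length with a Pearson r of 0.57 and a Spearman rho of 0.55, a description over genes of the same 4 libraries. In tumours the same correlation was -0.10 and -0.05. When the trend of counts with length and GC content was removed from each library, 9 of the 46 rose and 13 fell, against 17.8% and 18.4% of all genes, and the median was 0.01. Of the calls made without that step, 7 of the 13 rises and 8 of the 17 falls were also made with it. In tumours the same step left 32 falls and 1 rise, against 16.5% and 16.4% of all genes, with 31 of the 32 falls shared, Orc2 in and Chaf1a out.

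**Figure D3:**
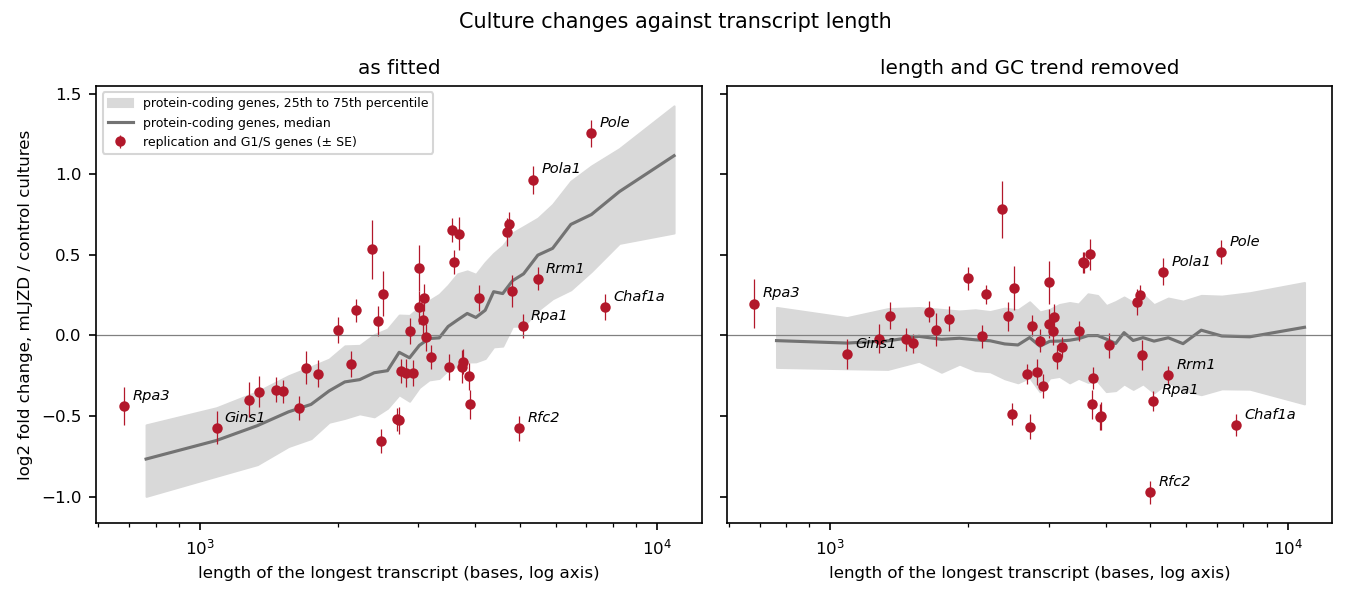
Log2 fold change of the 46 genes between mLJZD and control cultures (red points, ± SE) against the length of the longest transcript in bases on a log axis, as fitted and with the length and GC trend removed. The grey line and band are the median and the 25th to 75th percentile of protein-coding genes. As fitted, the red points climb along the grey band from Gins1 at -0.57 to Pole at 1.25, and with the trend removed they spread around 0.

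Among the polymerase genes 2 rose in cultures and 1 fell. Pole had the largest rise of the 46 as fitted, with 55.0 and 58.3 CPM in the control cultures and 148 and 133 CPM in the mLJZD cultures. The groups were far apart, and the log2 fold change was 1.25 ± 0.08 (SE, adjusted p = 3.56e-08). Pola1 had 74.8 and 88.2 CPM in the control cultures and 173 and 158 CPM in the mLJZD cultures, again without overlap, and its log2 fold change was 0.97 ± 0.09 (SE, adjusted p = 5.31e-07). With the trend removed both still rose, by 0.52 (adjusted p = 2.90e-04) for Pole and 0.39 (adjusted p = 0.00346) for Pola1, and Fen1 rose most, by 0.78 (adjusted p = 0.00474). Their partner subunits did not pass: Pole2 was at -0.20, Pola2 at 0.03, Prim1 at -0.01 and Prim2 at 0.09. Pold2, at 129 and 135 CPM in the control cultures and 104 and 96.8 CPM in the mLJZD cultures, fell by edgeR as fitted, with -0.45 ± 0.08 (SE, adjusted p = 1.67e-04). With the trend removed its sign turned, to 0.15 (adjusted p = 0.103).

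In origin licensing 5 of 8 genes rose and 2 fell. Orc2 had 98.2 and 107 CPM in the control cultures and 169 and 166 CPM in the mLJZD cultures. Both mLJZD cultures were above both control cultures, with a log2 fold change of 0.66 ± 0.07 (SE, adjusted p = 4.33e-06), and it was the only licensing gene that also rose with the trend removed, at 0.45 (adjusted p = 2.79e-04). Orc1 (0.42), Orc3 (0.23), Orc4 (0.23) and Cdc6 rose as fitted only. For Cdc6 the values were 26.3 and 28.8 CPM in the control cultures and 34.6 and 34.8 CPM in the mLJZD cultures. The groups did not overlap, at 0.28 ± 0.10 (SE, adjusted p = 0.0319), but with the trend removed the value was -0.12 (adjusted p = 0.335). Cdt1 fell in both fits, with 218 and 219 CPM in the control cultures and 156 and 161 CPM in the mLJZD cultures. Its log2 fold change was -0.52 ± 0.07 (SE, adjusted p = 2.03e-05) as fitted and -0.24 (adjusted p = 0.0124) with the trend removed.

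Helicase activators that passed as fitted all fell (Gins1, Gins2 and Gins4), and with the trend removed Gins2 was the only one called. Gins1 had 36.9 and 35.1 CPM in the control cultures and 24.4 and 25.9 CPM in the mLJZD cultures, with a log2 fold change of -0.57 ± 0.10 (SE, adjusted p = 2.68e-04) as fitted and -0.11 (adjusted p = 0.372) with the trend removed. Gins2 had 78.3 and 75.2 CPM in the control cultures and 64.3 and 54.8 CPM in the mLJZD cultures. It fell in both fits, at -0.43 ± 0.09 (SE, adjusted p = 0.0011) and -0.50 (adjusted p = 9.19e-04). Gins4, at -0.35 ± 0.09 (SE, adjusted p = 0.00597) as fitted, turned to 0.12 (adjusted p = 0.281). The exons of Gins2 share 2758 bases with the gene Gse1 on the opposite strand, and without a stated strand setting reads of the 2 cannot be told apart.

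The clamp loader split. Its large subunit Rfc1 had 143 and 160.0 CPM in the control cultures and 243 and 265 CPM in the mLJZD cultures. This was a rise without overlap, at 0.69 ± 0.08 (SE, adjusted p = 4.06e-06) as fitted and 0.25 (adjusted p = 0.0119) with the trend removed. Rfc2 had 129 and 133 CPM in the control cultures and 87.6 and 95.0 CPM in the mLJZD cultures. It fell, at -0.58 ± 0.08 (SE, adjusted p = 1.94e-05), as fitted and more so with the trend removed, at -0.97 (adjusted p = 2.33e-06). Rfc3 had 71.2 and 73.0 CPM in the control cultures and 49.5 and 54.7 CPM in the mLJZD cultures, and fell in both fits, at -0.52 ± 0.08 (SE, adjusted p = 1.01e-04) and -0.57 (adjusted p = 1.62e-04). Pcna, with 349.9 and 333 CPM in the control cultures and 282 and 278 CPM in the mLJZD cultures, fell as fitted at -0.35 ± 0.07 (SE, adjusted p = 8.72e-04), whereas with the trend removed it stood at -0.05 (adjusted p = 0.566). Rpa2 (-0.24) and Rpa3 (-0.44) fell as fitted only, and Rpa1, not called as fitted (0.06), fell with the trend removed, at -0.40 (adjusted p = 4.46e-04). Fen1 rose in both fits, at 0.53 ± 0.19 (SE, adjusted p = 0.0244) and 0.78 (adjusted p = 0.00474), from only 5.12 and 5.23 CPM in the control cultures and 7.83 and 7.76 CPM in the mLJZD cultures. Its exons overlap an antisense gene over 1909 bases.

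In nucleotide supply, Tk1 had the largest fall of the 46 in cultures as fitted, with 145 and 144 CPM in the control cultures and 93.9 and 97.3 CPM in the mLJZD cultures. Its log2 fold change was -0.65 ± 0.07 (SE, adjusted p = 4.16e-06) as fitted and -0.49 (adjusted p = 1.73e-04) with the trend removed, where Rfc2, at -0.97 (adjusted p = 2.33e-06), fell furthest. Tyms fell in both fits, at -0.25 and -0.51 (adjusted p = 4.51e-04). The subunits of ribonucleotide reductase depended on the fit. Rrm1 rose as fitted, at 0.35 ± 0.07 (SE, adjusted p = 6.98e-04), and fell with the trend removed, at -0.25 (adjusted p = 0.00688). Rrm2, with 259 and 264 CPM in the control cultures and 296 and 309.7 CPM in the mLJZD cultures, did not pass as fitted, at 0.16 ± 0.07 (SE, adjusted p = 0.073), and rose with the trend removed, at 0.26 (adjusted p = 0.00635).

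Uhrf1, at 182 and 207 CPM in the control cultures and 274 and 282 CPM in the mLJZD cultures, rose in both fits, with 0.46 ± 0.08 (SE, adjusted p = 1.39e-04) and 0.45 (adjusted p = 2.51e-04). Slbp (-0.23) and Chaf1b (-0.23) fell in both. Chaf1a did not pass as fitted (0.17) and fell with the trend removed, at -0.55 (adjusted p = 9.09e-05). Of the G1/S regulators, E2f8 had 64.8 and 75.3 CPM in the control cultures and 101 and 125 CPM in the mLJZD cultures. It rose in both fits, at 0.63 ± 0.10 (SE, adjusted p = 1.19e-04) and 0.50 (adjusted p = 0.00211). Dtl had 60.2 and 68.9 CPM in the control cultures and 98.4 and 111 CPM in the mLJZD cultures, a rise of 0.64 ± 0.09 (SE, adjusted p = 2.88e-05) as fitted, while with the trend removed it was 0.21 (adjusted p = 0.0643) and no longer called. Ccne1, with 62.2 and 63.5 CPM in the control cultures and 68.0 and 65.8 CPM in the mLJZD cultures, was called only with the trend removed, at 0.36 (adjusted p = 0.00216) against 0.03 as fitted. E2f1, with 147 and 149.6 CPM in the control cultures and 139 and 126 CPM in the mLJZD cultures, fell as fitted at -0.22 ± 0.08 (SE, adjusted p = 0.0226) and stood at 0.06 (adjusted p = 0.485) with the trend removed. In these cultures the markers Mki67 and Top2a rose, by 1.31 and 0.79 as fitted and by 0.23 and 0.24 with the trend removed, and their sum ran from 450 to 467 CPM in the control cultures and from 925 to 936 CPM in the mLJZD cultures.

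Set side by side, 13 genes fell in both tumours and cultures, which is 13 of the 32 tumour falls and of the 17 culture falls, and 7 fell in tumours but rose in cultures. Of the 12694 genes tested in both, 3.7% fell in both and 7.03% fell in tumours and rose in cultures. Those shares do not allow for how many of the 46 were called in each, and the overlap was not tested. After removal of the trend, 10 fell in both: Cdt1, Gins2, Rfc2, Rfc3, Rpa1, Rrm1, Tyms, Tk1, Chaf1b and Slbp. The same step gave 7 that fell in tumours and rose in cultures: Orc2, Pola1, Pole, Rrm2, Uhrf1, Ccne1 and E2f8. The matching shares of all genes were 3.25% and 3.85%. Of these 7, 4 did so in both fits, namely Pola1, Pole, Uhrf1 and E2f8.

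Subunits of 1 complex differed in level and in change by amounts that varied between complexes. Per kilobase, the highest subunit of the origin recognition complex stood 13.6 times above the lowest in the saline tumours and 8.04 times in the mLJZD cultures, whereas the 4 subunits of polymerase alpha and primase lay within 1.66 times and 1.56 times. Both subunits of CAF-1 (Chaf1a and Chaf1b) lay within 1.12 times of each other in the saline tumours. In tumours, log2 fold changes spanned 0.03 within ribonucleotide reductase (Rrm1 and Rrm2), 0.34 within polymerase alpha and primase, 0.39 within GINS and 0.54 within the origin recognition complex. In cultures the same spans were 0.19, 0.98, 0.83 and 0.99, and the clamp loader spanned 1.27 against 0.39 in tumours. With the trend removed the clamp loader still spanned 1.22 in cultures, from Rfc2 to Rfc1, while polymerase alpha and primase spanned 0.53. These spans are descriptions, with no test.

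Whether the effect of mLJZD differed between tumours and cultures was tested with the interaction term of an edgeR fit to the 8 libraries and 16090 genes. Values are the log2 effect in tumours minus that in cultures, so a smaller fall in tumours counts as higher, as for Tk1 (-0.25 against -0.65). The effect was lower in tumours for 15 of the 46 and higher for 9, against 20.5% and 23.8% of all genes. The median difference was -0.13 for the 46 and 0.07 for all genes. By library totals alone the split was 22 lower and 3 higher, beside 4219 and 2776 of the 16090 genes. With the trend removed it was 21 lower and 4 higher, against 14.9% and 17.9% of all genes. For Pole the difference was -1.45 ± 0.11 (SE, adjusted p = 2.91e-08), for Pola1 -1.45 ± 0.11 (SE, adjusted p = 2.04e-08) and for Dtl -1.08 ± 0.12 (SE, adjusted p = 1.69e-06). Fen1 differed by -0.84 ± 0.23 (SE, adjusted p = 0.00633). With the trend removed these were -0.72 (adjusted p = 4.59e-05), -0.96 (adjusted p = 5.64e-06), -0.75 (adjusted p = 9.30e-05) and -1.13 (adjusted p = 0.00106), in the same order. In the other direction, the difference was 0.52 ± 0.10 (SE, adjusted p = 3.10e-04) for Orc6, 0.51 ± 0.16 (SE, adjusted p = 0.0162) for Rpa3, 0.49 ± 0.09 (SE, adjusted p = 4.14e-04) for Tk1 and 0.48 ± 0.10 (SE, adjusted p = 6.64e-04) for Rfc2. After removal of the trend, Rfc2 at 0.84 (adjusted p = 6.25e-06) and Tk1 at 0.28 (adjusted p = 0.025) were still called, and Orc6 at 0.10 (adjusted p = 0.436) and Rpa3 at -0.26 (adjusted p = 0.314) were not. In all, 12 of the 15 and 2 of the 9 differences were called in the same direction in both fits. Chaf1a and Pold2 were called in both fits but in opposite directions.

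**Figure D4:**
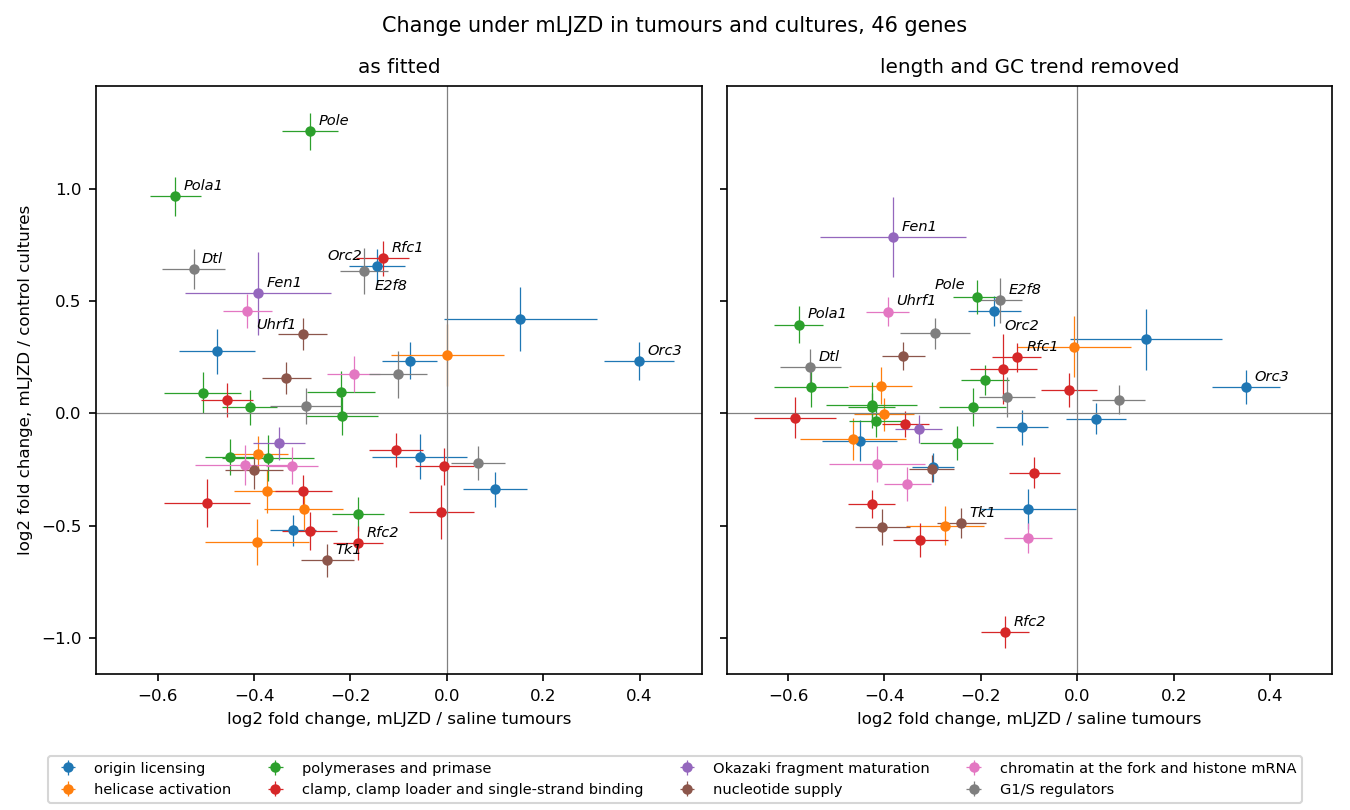
Log2 fold change of each of the 46 genes under mLJZD in tumours (horizontal axis) and in cultures (vertical axis), with SE bars and colours by role, as fitted and with the length and GC trend removed. Most points lie left of 0 in both panels, and they spread above and below 0 in cultures, with Pola1 at -0.56 and 0.97 as fitted.

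Untreated tumours and untreated cultures also differed. Between the saline tumours and the control cultures, 35 of the 46 were lower in the tumours and 8 were higher, against 35.7% and 44.9% of 15332 genes tested by edgeR. The median log2 fold change was -0.48 for the 46 and 0.15 for all genes. With the trend removed, 29 were lower and 6 higher, against 34.1% and 43.8% of all genes. By library totals alone 26 were lower and 9 higher, beside 4665 and 7624 of the 15332 genes. This comparison shares the saline tumours and the control cultures with the comparisons above, so its values are not independent of them. The tumours also held RNA of host cells, as the marker lists above show, and its part in these differences was not tested.

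E2f1 had the largest difference as fitted, with 66.6 and 68.3 CPM in the saline tumours and 147 and 149.6 CPM in the control cultures. The groups were far apart, and the log2 fold change was -1.30 ± 0.05 (SE, adjusted p = 3.53e-09) as fitted and -0.84 (adjusted p = 2.60e-09) with the trend removed, where Chaf1a, at -1.21 (adjusted p = 2.68e-10), differed most. Cdt1 had 107 and 103 CPM in the saline tumours and 218 and 219 CPM in the control cultures, a log2 fold change of -1.21 ± 0.05 (SE, adjusted p = 3.66e-09). Tk1 had 70.8 and 74.6 CPM in the saline tumours and 145 and 144 CPM in the control cultures, and its log2 fold change was -1.15 ± 0.06 (SE, adjusted p = 1.23e-08). Orc1, at 6.35 and 6.57 CPM in the saline tumours and 11.6 and 13.8 CPM in the control cultures, differed by -1.13 ± 0.15 (SE, adjusted p = 3.89e-05). All 6 subunits of the origin recognition complex were lower in the tumours in both fits, as were Gins1 and Gins2. All 9 clamp, clamp loader and RPA genes were lower as fitted, and 7 of them with the trend removed.

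The 8 genes with higher levels in the saline tumours were Pola1, Pole, Cdc6, Fen1, Slbp, Uhrf1, Ccne2 and E2f8. With the trend removed, Cdc6 was no longer called, at 0.27 as fitted and -0.01 (adjusted p = 0.877). Pola1 had 141 and 147 CPM in the saline tumours and 74.8 and 88.2 CPM in the control cultures, with a log2 fold change of 0.66 ± 0.07 (SE, adjusted p = 7.25e-06) as fitted and 0.24 (adjusted p = 0.00407) with the trend removed. Fen1 had 9.50 and 8.59 CPM in the saline tumours and 5.12 and 5.23 CPM in the control cultures, a log2 fold change of 0.64 ± 0.16 (SE, adjusted p = 0.00341). Pole had 91.0 and 89.1 CPM in the saline tumours and 55.0 and 58.3 CPM in the control cultures, at 0.51 ± 0.06 (SE, adjusted p = 1.24e-05) as fitted, and turned to -0.20 (adjusted p = 0.00415) with the trend removed. Ccne2, or cyclin E2, had 52.9 and 52.2 CPM in the saline tumours and 39.0 and 33.8 CPM in the control cultures. It was higher by 0.37 ± 0.08 (SE, adjusted p = 0.00213), whereas cyclin E1 was lower in the tumours, at -0.83. Likewise the activator E2f1 was lower and the repressor E2f8 higher, at 0.35, in both fits. Tyms, Pold3 and Dtl did not pass as fitted.

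**Figure D5:**
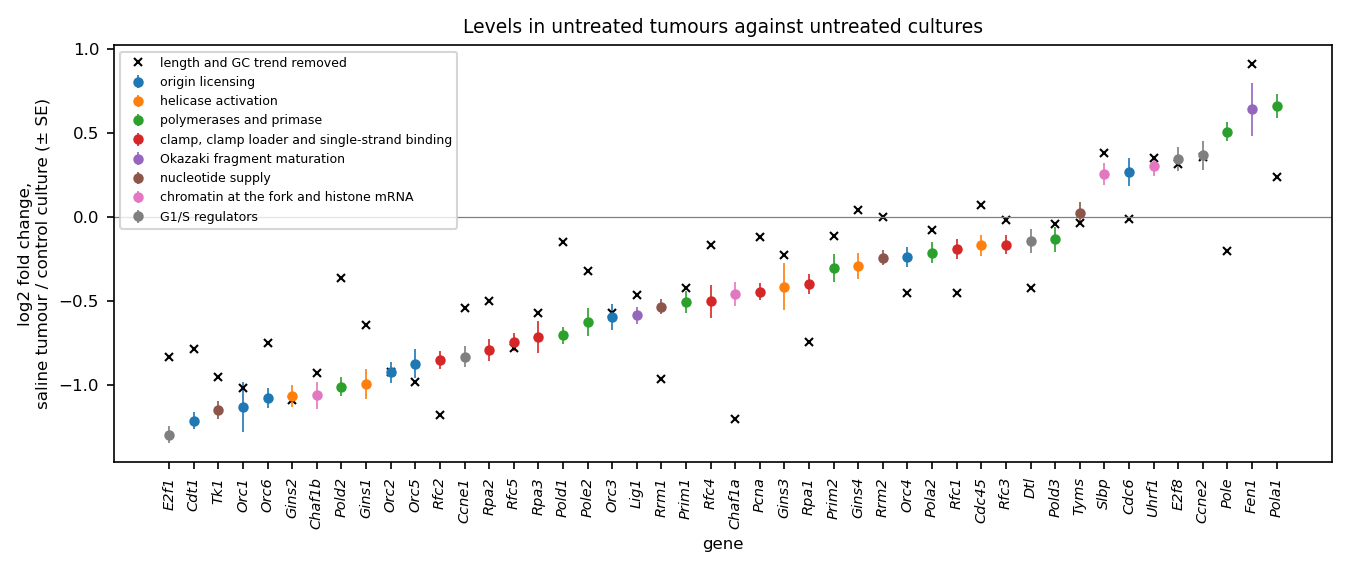
Log2 fold change between saline tumours and control cultures for each of the 46 genes, ordered by value, with SE bars and colours by role, and with the length and GC trend removed as crosses. Most genes lie below 0, from E2f1 at -1.30, and 8 lie above 0 with a call, up to Pola1 at 0.66.

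Related genes outside the module are given by count, against 16.0% of all genes lower and 15.4% higher in mLJZD tumours. In mLJZD cultures the shares of all genes were 26.6% lower and 28.8% higher as fitted, and 18.4% and 17.8% with the trend removed. Of the 9 MCM genes, 8 fell in mLJZD tumours and 0 rose, with a median of -0.43 and the largest falls in Mcm6 (-0.69), Mcm3 (-0.68) and Mcm2 (-0.56). In cultures 4 of the 9 rose and 0 fell as fitted, and with the trend removed 2 rose and 2 fell. Of 26 tested identifiers of other replisome and origin-firing genes, 12 fell in tumours and 2 rose. The largest falls were in Dscc1 (-0.47), Recql4 (-0.46) and Topbp1 (-0.43), and the 2 rises were the accessory polymerase subunits Pold4 (0.42) and Pole3 (0.42). In cultures, 12 of 25 rose and 8 fell, and 11 and 4 with the trend removed. Of 18 other nucleotide supply genes, 9 fell in tumours, led by Umps (-0.58), and 3 rose, led by Cmpk1 (0.64). In cultures 5 of these rose and 5 fell, shares near those of all genes.

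Of 31 other G1/S control genes tested in tumours, 7 fell and 8 rose. The falls were led by Tfdp2 (-0.53), E2f6 (-0.42) and Ccna2 (-0.37). The rises were led by Cdkn1a (0.59), which encodes the kinase inhibitor p21, Myc (0.42) and Ccnd2 (0.38), or cyclin D2. Cdkn1a had 192 and 201 CPM in the saline tumours and 302 and 278 CPM in the mLJZD tumours, and both mLJZD tumours were above both saline tumours. In cultures, 12 of 29 rose and 9 fell as fitted, against 6 and 7 with the trend removed. Of 10 other chromatin replication genes, 5 fell in tumours, led by Dnmt1 (-0.36), and 1 rose, Rbbp4 (0.18). In cultures 3 of the 10 rose and 2 fell.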

How the data were processed

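The deposited values are raw counts, which the authors gave for each gene in the 8 libraries. The tools named per the submitters' processing notes are featureCounts 2.0.3, SAMtools 1.14, HISAT2 2.2.1, FastQC 0.12.1 and Trim Galore, and the build is GRCm39. No source used here gives the annotation release, the strand setting or how reads with several matches were counted. Symbols, transcript length and GC content came from GENCODE M21 by identifier. Exons of Gins2, Chaf1a, Fen1, Rfc2 and Orc2 overlap genes on the opposite strand over 2758, 2542, 1909, 952 and 686 bases. Those of Rfc5, Ccne2, Rfc4 and Orc6 overlap opposite-strand genes with more counts than their own, over 499, 474, 186 and 171 bases. Counts of all these genes are uncertain without a strand setting. Counts of Pcna are uncertain too, with a pseudogene copy of 398 counts in all.

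Each comparison was fitted with edgeR 4.0.16 in R 4.3.3 (quasi-likelihood F test, two-sided, TMM, filterByExpr) on the libraries compared, with all 8 for the interaction. Calls had a Benjamini-Hochberg adjusted p under 0.05 over all genes tested. The SE was computed from the log2 fold change and its F value. Alternatives were DESeq2 1.42.0, other scalings, no filter, 1 fit of all libraries, a replicate block, each library left out, and removal per library of the trend with length and GC (splines with 5 degrees of freedom over protein-coding genes of at least 5 CPM). Leaving out a library leaves 1 in its group, which is assumed to vary like the others. The test was also run on simulated counts without a trend, and the trend step on simulated counts with one. The share of false calls stayed under the threshold except for cultures and the interaction, both with the trend removed. Calls of these fits are less certain. Since the simulated counts for the fits without trend removal held no trend, they do not tell how such fits fare where one is present. Libraries of a group differed by more than counting noise (chi-square per degree of freedom of 2.69 to 11.6), so none was merged.

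Values in every library are given for up to 6 called genes per direction in each mLJZD comparison, up to 4 for the other comparisons, and for 8 genes that stand for the roles. Related lists name at most 3 called genes per direction. The 46 genes and all lists were chosen with earlier results of these data known.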

Additional observations from a re-analysis of the deposited data

Results flagged for a closer look

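For 24 of the 46 genes the effect of mLJZD differed between tumours and cultures, by edgeR's interaction test over all 8 libraries at an adjusted p under 0.05. Values are the log2 effect in tumours minus the log2 effect in cultures, so a smaller fall in tumours counts as higher. The same test called 7136 of all 16090 genes. The effect was lower in tumours for 15 genes, against 20.5% of all genes. Among the polymerase genes, these were Pole (-1.45), Pola1 (-1.45), Prim2 (-0.51) and Pola2 (-0.35). In licensing they were Orc2 (-0.72) and Cdc6 (-0.67). At the clamp, loader and lagging strand they were Fen1 (-0.84), Rfc1 (-0.74) and Rpa1 (-0.43). Of nucleotide supply and chromatin they were Uhrf1 (-0.79), Rrm1 (-0.57), Rrm2 (-0.40) and Chaf1a (-0.28), and of the G1/S regulators Dtl (-1.08) and E2f8 (-0.72).

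The effect was higher in tumours for 9 genes, against 23.8% of all genes. These were Orc6 (0.52), Rpa3 (0.51), Tk1 (0.49), Rfc2 (0.48), E2f1 (0.37), Pold2 (0.35), Rfc3 (0.33), Rpa2 (0.32) and Cdt1 (0.29). With the trend of length and GC content removed, 12 of the 15 and 2 of the 9 were called in the same direction, and, of the 24, Chaf1a at 0.45 (adjusted p = 0.00156) and Pold2 at -0.30 (adjusted p = 0.0181) were called in the opposite one.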

How the results depend on the processing

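For tumours, the count of falls ran from 13 to 29 and of rises from 0 to 1 with a library left out, beside 1087 to 3536 genes called in all against 4835, and the median of the 46 from -0.30 to -0.26. With DESeq2 24 fell and 1 rose. For cultures, leaving out a library gave 9 to 12 rises, 12 to 16 falls, 6358 to 6889 genes called and a median of -0.08 to -0.05. Upper-quartile scaling gave 8 rises and a median of -0.18, and moved the median of all genes from -0.01 to -0.12.

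Removal of the length and GC trend left 4817 genes called in cultures against 7365 and turned the sign of the median of the 46 (0.0111). Sign changes are listed only for genes called with or without the trend removed. In cultures, Orc4 (-0.0619), Cdc6 (-0.12), Gins4 (0.12), Pold2 (0.15) and Rpa1 (-0.40) turned. So did Rpa2 (0.11), Rpa3 (0.20), Rrm1 (-0.25), Chaf1a (-0.55) and E2f1 (0.0614). With the replicate block as well, the median was 0.0102. In the same order, the genes were then at -0.0618, -0.12, 0.13, 0.15, -0.40, 0.11, 0.18, -0.25, -0.55 and 0.0614. Between untreated tumours and cultures, the trend removal turned Cdc6 (-0.0145), Cdc45 (0.0716), Gins4 (0.0399), Pole (-0.20) and Rrm2 (0.0016). With the block these were -0.0147, 0.0706, 0.0411, -0.20 and 0.0017. Library totals gave a median of -0.32, with that of all genes moving from 0.15 to 0.31. Leaving out a library gave 7 higher, 30 to 35 lower, 10714 to 12285 genes called and a median of -0.54 to -0.46.

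For the difference between tumours and cultures, sign changes are again listed for genes called with or without the trend removed. Those that turned were Cdt1 (-0.0242), Gins4 (-0.49), Pold2 (-0.30), Pcna (-0.27), Rpa2 (-0.0873), Rpa3 (-0.26) and Chaf1a (0.45). With the block these were -0.0228, -0.49, -0.30, -0.27, -0.0879, -0.25 and 0.45. Genes with a higher effect in tumours numbered 3 by library totals, 4 without a filter, 4 with the trend removed and 5 with the block too, beside medians of -0.30, -0.25, -0.25 and -0.24. The median of all genes, 0.07 in the fit reported, was -0.09 by library totals and -0.10 without a filter. Leaving out a library gave 5 to 9 higher, 13 to 16 lower, 5872 to 7200 genes called and a median of -0.17 to -0.13. Apart from changes that follow from the trend step itself or from fewer libraries, the cause of these changes was not tested.

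In cultures, libraries with the same replicate number did not deviate together from their group means (r of -0.01 over 9565 genes). In tumours they deviated in opposite directions (r of -0.43 over 9565 genes). Within a group the deviations mirror each other, so tumour libraries with different numbers deviated together across the groups. The cause of this was not tested. With the replicate block, 32 genes fell and 1 rose in tumours, 13 rose and 17 fell in cultures, 35 were lower and 8 higher in untreated tumours, and the difference had 14 lower and 9 higher. With the pairing crossed, an alternative chosen after seeing the data, 34 fell and 1 rose in tumours. In all, 5411 genes were then called, against 4461 with the block as numbered and 4835 without a block. Fen1, Orc1 and Gins3 had the lowest counts and so the widest errors of the 46.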
